A study of Mus musculus with 20 samples.

Results

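Hearts that lacked OGFOD1 were compared with wild-type hearts when both had received isoproterenol, in 10 of the 20 libraries of the study. The libraries were chosen by their labels, 5 from knockout (KO) and 5 from wild-type (WT) C57BL/6N mice. All mice were aged 3 to 5 months, ate NIH-31 diet and carried an osmotic minipump for 2 weeks. The pump delivered isoproterenol in phosphate-buffered saline with sodium ascorbate. The other 10 libraries, 5 WT and 5 KO, came from mice given the same buffer and ascorbate without isoproterenol (vehicle), and they entered the fit and serve below as the background genotype difference. The labels call the knockout OGFOD1-KO and say neither which part of the gene was removed nor whether it was removed in the heart alone. RNA came from a small aliquot of each powdered frozen heart and was made into stranded total RNA libraries. Whether the 5 libraries of a group came from 5 mice is not labelled, and p-values therefore speak of the spread among libraries, which may be technical.

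OGFOD1 is an oxygenase that uses 2-oxoglutarate and iron to hydroxylate a prolyl residue of Rps23, a protein of the small ribosomal subunit that sits near the decoding centre. It is also known from stress granules, the assemblies of stalled messenger RNA. Isoproterenol stimulates beta-adrenergic receptors, which raise cyclic AMP through the G protein Gs, and its lasting infusion makes the heart hypertrophic and fibrotic. The parasympathetic brake on the same cells runs through muscarinic receptors, the G protein Gi and a potassium channel that Gi opens. The question of the comparison was which transcripts depended on OGFOD1 in a heart under beta-adrenergic load.

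Values are counts scaled to library size (CPM), replicate numbers without a treatment are those of the isoproterenol libraries, differences are log2 fold changes of KO against WT with their standard error (SE), and a gene passed when its p from edgeR's quasi-likelihood test, adjusted by Benjamini and Hochberg's method over all 14878 genes tested, was under 0.05. The 10 libraries held 14609808 to 43671055 counts, of which 5.92 to 17.1 M lay outside the mitochondrial genome, and mt-Rnr2, a ribosomal RNA of mitochondria, accounted for 42.2% to 46.4%. All 3 quantities overlapped between genotypes (2-sided exact permutation tests, p = 0.548, 0.524 and 0.810). The heart label matched its markers: the summed level of 10 cardiomyocyte markers was 29146 to 31872 CPM in WT and 23819 to 31442 CPM in KO. Of 12 skeletal muscle markers, the myosins Myh1 and Myh2 reached at most 1 and 2 counts in a library, Myh4 14 and Mylpf 12. The list had 4 genes with enough counts to be tested, 2 above and 2 below 0. Mybpc2 of these was at 2.32 to 3.61 log2 CPM in WT and 2.93 to 3.35 in KO. Of 10 lung and thymus markers, Sftpa1 and the thymic gene Foxn1 were at 0 in all 10 libraries. The airway gene Scgb1a1 reached 34 counts in 1 library of 35 in all, and the 1 marker with enough counts to be tested, Ager, measured 0.173 to 0.514 CPM in WT and 0.327 to 0.848 CPM in KO. The library called KO isoproterenol replicate 5 stood apart, with Eln (elastin) at 10.9 log2 CPM against 5.04 to 5.46 in KO replicates 1 to 4 and 5.22 to 7.58 in WT. Its smooth muscle transcript Tagln was at 7.68 log2 CPM against 4.16 to 4.90 in KO replicates 1 to 4. Results that rest on it are given with and without it. In whole-heart RNA, fewer cells of a type and less RNA per cell cannot be told apart.

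Ogfod1 itself (ENSMUSG00000033009.15; GRCm38 chromosome 8, 94037198 to 94067921, plus strand) measured 21.4, 19.6, 21.8, 19.4 and 18.7 CPM in WT replicates 1 to 5 and 3.59, 2.86, 2.95, 2.39 and 4.13 CPM in KO replicates 1 to 5. The genotypes did not overlap, and 42 to 98 counts per library remained in the KO. The log2 fold change was −2.64 (SE 0.115, edgeR adjusted p = 5.32e-16), against −2.58 between the vehicle groups. Rps23, the substrate, measured 26.5 to 36.2 CPM in WT and 28.2 to 37.0 CPM in KO, ranges that overlap almost fully (log2 fold change 0.01, SE 0.0893, edgeR adjusted p = 0.975). Of 18 tested genes of OGFOD1, its substrate and related oxygenases, Ogfod1 was the gene that passed. Of 21 stress granule genes 0 passed, their median log2 fold change was 0.03, and 1 was higher and 0 lower at an unadjusted p under 0.05.

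Beyond Ogfod1 few transcripts passed, and most of those that did were lower in the KO. They included the cardiac potassium channel subunit gene Kcnj5 and its G protein regulator Rgs6, the noradrenaline-synthesizing enzyme gene Dbh, the TRP channel regulator gene Pirt, the sarcomeric LIM protein gene Fhl2 and the microtubule-associated Cenpf and Mtus2. The transcripts that rose included the actin regulator Enah, the Rac activator Tiam2, the growth factor receptor gene Igf1r and the small non-coding Y RNA Rny3. In all, 27 of 14878 genes passed (0.181%), 8 of them higher (0.0538%) and 19 lower (0.128%) in the KO, and 25 were protein coding. Only 3 differed by more than 2-fold, namely Ogfod1, Rny3 and Gm42517, and the median of all tested genes was 0.004. At an unadjusted p under 0.05, 1073 genes were higher (7.21%) and 862 lower (5.79%). These shares are the background for the counts of every list below. The 5 KO and 5 WT values did not overlap for 318 genes (2.14%), 150 higher and 168 lower, and this held for 24 of the 27 genes that passed.

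**Figure D1:**
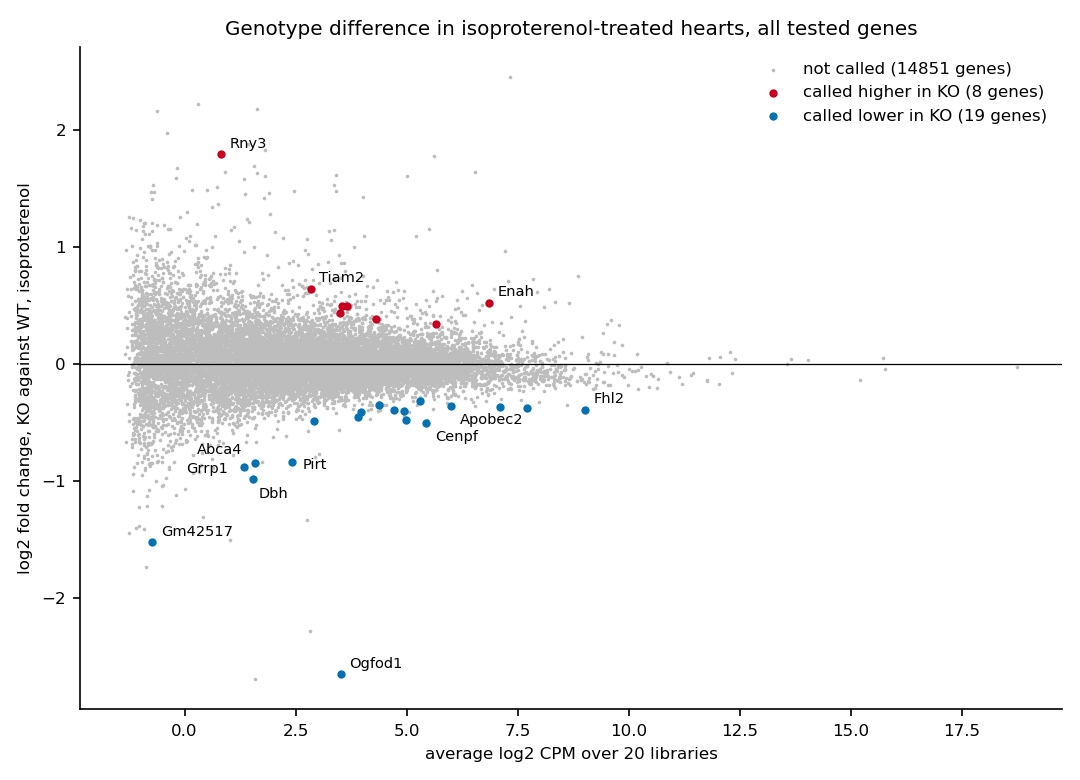
Log2 fold change of KO against WT under isoproterenol (vertical axis) against average log2 CPM (horizontal axis) for the 14878 tested genes, 1 point a gene. The 27 genes that passed edgeR's test at an adjusted p under 0.05 are coloured; Ogfod1 lies alone at −2.64, and most others lie within 1 log2 unit of 0.

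How many genes passed depended on the tool and on single libraries. DESeq2 called 71 higher and 62 lower, and leaving out 1 library at a time moved the edgeR count from 1 to 25 higher and from 7 to 40 lower. Ogfod1, Pirt, Enah, Apobec2, Kcnj5, Ccdc9b, Mtus2 and Dbh passed in each of 31 alternative analyses, 20 of which left out 1 library. The other 19 were lost in at least 1, and 20 of the 27 passed without KO replicate 5. Without it, genes outside the 27 passed as well. Higher were Nrap, Sik3, Lrrc58, Clip1, Etv5, Spp1, Prg4, Xirp2, Bnc2 and Slc38a1. Lower were Itgb6, Eepd1, Cdh13 and Casq1. Cenpf was lost without KO replicate 4 (edgeR adjusted p = 0.0512) and Fam126b without WT replicate 3 (0.0665). Tiam2 and Rny3 were lost without WT replicate 3, WT replicate 4 or KO replicate 4 (edgeR adjusted p up to 0.0723 and 0.119). Fhl2 was lost without WT replicate 4, WT replicate 5 or KO replicate 4 (up to 0.0761), and Gm42517 without WT replicate 3, WT replicate 5, KO replicate 1 or KO replicate 4 (up to 0.0817). Opa3 and Asb18 were lost without WT replicates 3, 4 or 5 or KO replicates 2 or 4 (up to 0.0996 and 0.119), and Gsg1l without WT replicates 3, 4 or 5 or KO replicates 4 or 5 (up to 0.119). With the compared groups fitted alone 15 of the 27 calls were lost, among them Rny3 (edgeR adjusted p = 0.115), Fam126b, Fhl2, Opa3, Asb18, Gsg1l and Kcnq1. Limma-voom lost 8, among them Kcnq1, Abca4 and Fndc5, and 2 surrogate variables lost 7. On leaving out each of the 20 libraries in turn, Kirrel and Grrp1 passed 14 times, and Rgs6, Kcnq1, Fndc5 and Abca4 13 times. Creb5, Gm36827 and Igf1r passed 5 times and Igfbp6 6 times.

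A subunit of the cardiac potassium channel that answers to G proteins fell, as did a regulator of those proteins. Kcnj5 (ENSMUSG00000032034.6; GRCm38 chromosome 9, 32314707 to 32344350, minus strand) encodes GIRK4, a subunit of the channel that muscarinic receptors open to slow the heart. It measured 33.9, 38.2, 40.0, 35.7 and 42.1 CPM in WT and 28.4, 25.5, 30.9, 25.5 and 25.9 CPM in KO. Every KO library lay below every WT library, and the fall was −0.48 on the log2 scale (SE 0.0787, edgeR adjusted p = 0.00400). Kcnj5 was also lower in the KO under vehicle (log2 fold change −0.37, edgeR adjusted p = 0.0475). Kcnj3, which encodes the partner subunit GIRK1, had a log2 fold change of −0.12 that did not pass (SE 0.0724, edgeR adjusted p = 0.511). Rgs6 ends signalling by the same class of G proteins by speeding their hydrolysis of GTP. It measured 16.3, 18.6, 17.4, 18.9 and 19.8 CPM in WT and 15.0, 12.6, 11.8, 13.9 and 13.2 CPM in KO. Its groups did not overlap either, with a fall of −0.45 (SE 0.0927, edgeR adjusted p = 0.0318). GIRK subunits are richest in the atria, and of 11 atrial myocyte markers 0 passed, with 0 at an unadjusted p under 0.05 and a summed level of 945 to 1081 CPM in WT and 879 to 1177 CPM in KO. These markers include Kcnj3, and any part of atrial tissue in the 2 falls was not tested.

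Kcnq1, the pore subunit of the slow delayed rectifier that shortens the action potential under adrenergic drive, measured 25.2, 36.2, 33.3, 34.5 and 39.9 CPM in WT and 25.8, 26.5, 25.5, 26.4 and 24.8 CPM in KO. The KO libraries were tightly grouped, and WT replicate 1 lay among them. The fall was −0.39 (SE 0.0792, edgeR adjusted p = 0.0252), but the antisense transcript Kcnq1ot1 overlaps the gene and held a mean of 1578 counts against 645 for Kcnq1, so that the value is uncertain where counting ignored strand. Kcnq1's accessory subunit Kcne1 (log2 fold change −0.69, edgeR adjusted p = 0.181) and the inward rectifier Kcnj2 did not pass. Kcnj2 sets the resting potential of ventricular myocytes. It measured 48.8, 40.5, 34.7, 35.3 and 33.6 CPM in WT and 32.5, 25.8, 28.0, 28.3 and 30.9 CPM in KO, without overlap (log2 fold change −0.40, edgeR adjusted p = 0.0970, DESeq2 adjusted p = 0.0280). Among 27 tested potassium, sodium and related channel genes, 2 passed, both lower. At an unadjusted p under 0.05, 7 were lower and 1 higher, against 5.79% and 7.21% of all genes. The median of the list was −0.15, and it was −0.15 between the vehicle groups as well. Without KO replicate 5 it was −0.12, with 9 lower and 0 higher.

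The promoter of Rgs6 is printed because Rgs6 was the gene among those that passed whose promoter held an MCAT element, a muscle motif bound by TEAD factors. The letters searched were CATTCCT on both strands, and capitals mark the matches, 67 and 26 bases before the start. The sequence is RefSeq's for GRCm38.p6, the 250 bases before the transcript start.

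Rgs6, chr12:82617249-82617498, plus strand: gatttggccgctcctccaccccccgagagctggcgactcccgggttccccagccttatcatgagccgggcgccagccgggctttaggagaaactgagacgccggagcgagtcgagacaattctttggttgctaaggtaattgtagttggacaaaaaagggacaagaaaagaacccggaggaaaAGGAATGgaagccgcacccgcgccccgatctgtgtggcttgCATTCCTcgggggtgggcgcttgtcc

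In windows from 250 bases before to 50 after the start, MCAT occurred in 4.43% of 13367 promoters of tested genes. By gene the share was 5.31%, and 1 of the 23 genes that passed and had a promoter in the table held it. A match describes the letters and no binding.

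Dbh and Pirt, genes known from the nervous system, both fell. Dbh (GRCm38 chromosome 2, 27165233 to 27183200, plus strand) encodes dopamine beta-hydroxylase, which makes noradrenaline in sympathetic neurons. It measured 2.43, 3.81, 2.70, 3.96 and 3.00 CPM in WT and 1.70, 1.97, 1.58, 1.70 and 1.30 CPM in KO. Every KO value lay below the lowest WT value, on 29 to 34 counts per KO library. The log2 fold change was −0.98 (SE 0.17, edgeR adjusted p = 0.00544), against −0.34 under vehicle (edgeR adjusted p = 0.569). Of 8 tested nerve and glial markers, Dbh was the 1 that was lower at an unadjusted p under 0.05 and 0 were higher. The list as a whole did not fall: 6 members lay above 0 and 2 below, with a median of 0.16 (0.17 under vehicle). Without KO replicate 5, 4 lay above and 4 below 0, with a median of 0.08. The summed level of the list was 17.6 to 21.7 CPM in WT and 17.6 to 21.0 CPM in KO. Th, the enzyme that acts before Dbh in the same pathway, reached at most 1 count in a library, and the neuronal filament gene Prph at most 11.

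Pirt (GRCm38 chromosome 11, 66911981 to 66929876, plus strand) encodes a membrane protein that binds phosphoinositides and regulates TRP channels, known from sensory neurons. It measured 9.70, 8.26, 8.61, 7.40 and 6.15 CPM in WT and 5.14, 3.17, 4.25, 4.09 and 5.56 CPM in KO, without overlap. The log2 fold change was −0.84 (SE 0.130, edgeR adjusted p = 0.00237). Means under vehicle were 4.68 ± 0.283 CPM in WT and 3.87 ± 0.408 CPM in KO (SD, n = 5), and under isoproterenol 8.02 ± 1.33 and 4.44 ± 0.934 CPM (SD, n = 5). The isoproterenol-treated WT mean was thus the highest of the 4 groups, and the KO mean under isoproterenol lay near the WT vehicle mean. Gsg1l, an auxiliary subunit of AMPA-type glutamate receptors, measured 8.60 to 10.6 CPM in WT and 6.15 to 7.96 CPM in KO (log2 fold change −0.48, SE 0.0966, edgeR adjusted p = 0.0228). Its groups did not overlap, but without KO replicate 5 its edgeR adjusted p was 0.0607.

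Cenpf and Mtus2, whose proteins bind microtubules, and Ccdc9b also fell. Cenpf (GRCm38 chromosome 1, 189640606 to 189688086, minus strand) encodes a large protein of the kinetochore and, in myocytes, of the microtubule network. It measured 73.5, 77.4, 63.3, 63.0 and 67.4 CPM in WT and 45.7, 54.3, 53.6, 45.0 and 45.3 CPM in KO. The groups were well separated (log2 fold change −0.50, SE 0.0915, edgeR adjusted p = 0.0154), and under vehicle Cenpf fell by more, from 36.3 ± 5.93 to 20.0 ± 1.57 CPM (SD, n = 5; log2 fold change −0.86, edgeR adjusted p = 7.11e-06). Both genotypes therefore held more Cenpf under isoproterenol than under vehicle. The call was lost without KO replicate 4 (edgeR adjusted p = 0.0512). Of 26 tested cell cycle and replication genes, Cenpf was the 1 that passed. The list had 2 lower and 0 higher at an unadjusted p under 0.05 (1 and 0 without KO replicate 5), and a median of −0.08.

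Mtus2 (GRCm38 chromosome 5, 147957320 to 148316065, plus strand) encodes a protein that tracks growing microtubule ends. It measured 197, 179.9, 210.5, 208 and 209 CPM in WT and 149, 148, 163, 159.5 and 161 CPM in KO. The gap between the groups was wide against their spread (log2 fold change −0.36, SE 0.0617, edgeR adjusted p = 0.00460). Under vehicle the genotypes were alike in mean, 96.6 ± 4.72 CPM in WT and 95.9 ± 7.79 CPM in KO (SD, n = 5). Ccdc9b (GRCm38 chromosome 2, 118754158 to 118762661, minus strand) measured 34.9, 38.5, 41.5, 36.6 and 38.7 CPM in WT and 32.5, 29.5, 28.6, 26.9 and 26.5 CPM in KO. It too was separated under isoproterenol (log2 fold change −0.40, SE 0.0677, edgeR adjusted p = 0.00458), with vehicle means of 29.0 ± 2.08 and 27.3 ± 1.40 CPM (SD, n = 5). In both genes the WT mean under isoproterenol was the highest of the 4 group means.

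**Figure D2:**
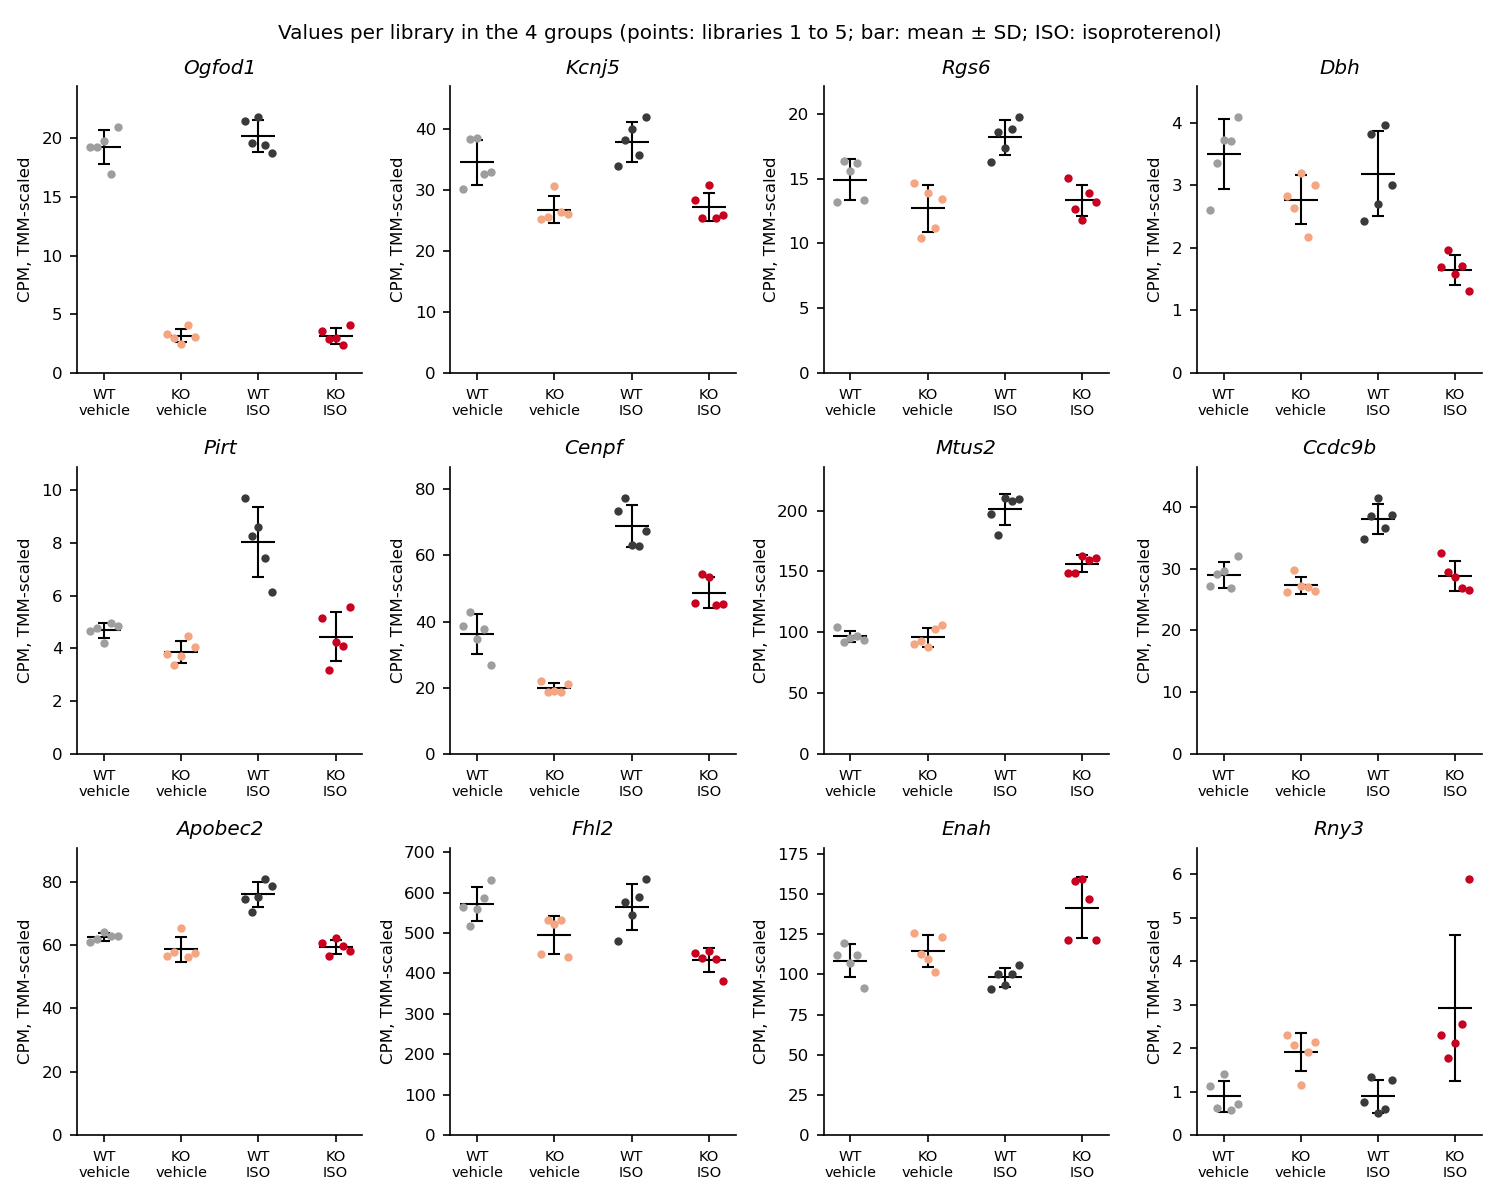
CPM (vertical axes, from 0) of 12 genes in each library of the 4 groups; points are libraries, bars are the mean ± SD of 5, and ISO stands for isoproterenol. The KO isoproterenol points lie below all WT isoproterenol points for Kcnj5, Rgs6, Dbh, Pirt, Cenpf, Mtus2, Ccdc9b, Apobec2 and Fhl2, and above them for Enah and Rny3.

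Fhl2, Asb18, Fndc5, Apobec2 and Opa3, best known from muscle and mitochondria, fell as well. Fhl2 (GRCm38 chromosome 1, 43123074 to 43196984, minus strand) encodes a LIM-domain protein that binds titin and carries signals between the sarcomere and the nucleus. It measured 479.7, 576, 544, 589.9 and 634 CPM in WT and 450.1, 439, 455, 435 and 381 CPM in KO. The KO libraries lay below all WT libraries, with KO replicate 5 the lowest (log2 fold change −0.39, SE 0.0744, edgeR adjusted p = 0.0198; −0.34 and 0.0353 without that library). Under vehicle the log2 fold change was −0.21 and did not pass (edgeR adjusted p = 0.363). Fhl2 was the 1 gene that passed of 18 tested fetal and hypertrophy genes, whose median was 0.08 (0.21 under vehicle). At an unadjusted p under 0.05, 4 were higher and 1 lower, against 7.21% and 5.79% of all genes. The counts were 2 and 1 without KO replicate 5, where Xirp2 of this list passed as higher (log2 fold change 0.29, edgeR adjusted p = 0.0423).

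Both RefSeq promoters of Fhl2 are printed because they hold a CArG box, the element that serum response factor binds in muscle genes, and the outer promoter also a MEF2 site, the element of the myocyte enhancer factors. Both motifs were searched by their usual consensus on both strands, and capitals mark the matches. In the first sequence the CArG box begins 96 and the MEF2 site 31 bases before the start, and in the second the CArG box begins 31 bases before it.

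Fhl2, chr1:43196762-43197011, minus strand: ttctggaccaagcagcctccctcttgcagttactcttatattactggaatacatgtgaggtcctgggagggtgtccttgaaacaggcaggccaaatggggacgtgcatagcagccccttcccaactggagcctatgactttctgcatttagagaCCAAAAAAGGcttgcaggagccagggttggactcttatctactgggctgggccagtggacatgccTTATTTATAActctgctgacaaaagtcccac
Fhl2, chr1:43163962-43164211, minus strand: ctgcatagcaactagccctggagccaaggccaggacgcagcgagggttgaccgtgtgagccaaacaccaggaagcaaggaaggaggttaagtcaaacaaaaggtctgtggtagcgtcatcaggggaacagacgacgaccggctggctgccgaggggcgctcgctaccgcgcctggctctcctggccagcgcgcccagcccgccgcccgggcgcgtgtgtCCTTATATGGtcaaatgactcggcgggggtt

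Of all 13367 promoters, 1.34% held a CArG box and 1.97% a MEF2 site. By gene the shares were 1.62% and 2.46% of tested genes with a promoter. Fhl2 was the 1 gene with a CArG box among the 23 genes that passed and had a promoter, and Fhl2 and Asb18 were the 2 with a MEF2 site.

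Asb18 encodes a SOCS-box protein with ankyrin repeats, of the family that selects substrates for cullin ubiquitin ligases. It measured 17.2, 17.7, 19.4, 19.5 and 17.9 CPM in WT and 16.6, 13.7, 13.4, 11.9 and 13.5 CPM in KO, without overlap (log2 fold change −0.41, SE 0.0832, edgeR adjusted p = 0.0268). It was the 1 gene that passed among 23 tested muscle ubiquitin ligase and related genes. Of the 23, 8 were lower and 2 higher at an unadjusted p under 0.05, and 6 had groups that did not overlap. The shares over all tested genes were 5.79%, 7.21% and 2.14%. Asb2 (log2 fold change −0.32, edgeR adjusted p = 0.0970), Asb10 (−0.27, 0.106) and Klhl38 (−0.38, 0.115) came nearest without passing, and DESeq2 called 5 of the list lower. The counts were 8 lower and 2 higher without KO replicate 5 as well. The median of the list was only −0.07, since 10 members lay above 0.

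Fndc5, the precursor of the secreted peptide irisin, measured 212, 220.3, 234, 260.3 and 276 CPM in WT and 191, 180.2, 203, 199 and 157 CPM in KO (log2 fold change −0.37, SE 0.0774, edgeR adjusted p = 0.0318). The groups were apart, but the call was lost without KO replicate 5 (−0.31, edgeR adjusted p = 0.0571). Apobec2, the muscle-restricted member of the cytidine deaminase family, and Opa3, a mitochondrial membrane protein mutated in an optic atrophy, fell outside the 15 largest falls and were named after their values were seen. Apobec2 (GRCm38 chromosome 17, 48419231 to 48432930, minus strand) measured 74.7, 70.5, 75.3, 81.0 and 78.7 CPM in WT and 60.8, 56.6, 62.4, 59.8 and 58.0 CPM in KO. The genotypes were apart with little spread in either (log2 fold change −0.35, SE 0.0562, edgeR adjusted p = 0.00266), with vehicle means of 62.6 ± 1.24 and 58.7 ± 3.85 CPM (SD, n = 5). Opa3 measured 39.7 to 45.2 CPM in WT and 33.0 to 36.5 CPM in KO (log2 fold change −0.31, SE 0.0624, edgeR adjusted p = 0.0228).

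Enah and Tiam2, regulators of the actin cytoskeleton, rose, as did Kirrel, Fam126b and Creb5. Enah (GRCm38 chromosome 1, 181896384 to 182019990, minus strand) encodes a protein that lengthens actin filaments and is found at the intercalated disc. It measured 91.2, 100.1, 93.4, 100.1 and 106 CPM in WT and 122, 158, 159.6, 147 and 121 CPM in KO. All KO libraries lay above all WT libraries (log2 fold change 0.53, SE 0.0818, edgeR adjusted p = 0.00237), while the vehicle means were 109 ± 10.5 and 115 ± 10.1 CPM (SD, n = 5; log2 fold change 0.08). Tiam2 (GRCm38 chromosome 17, 3326573 to 3531344, plus strand) activates Rac, the GTPase that drives actin-based protrusion. It measured 4.45, 5.52, 5.85, 5.65 and 6.78 CPM in WT and 6.88, 8.95, 9.27, 9.54 and 9.47 CPM in KO. The groups met closely but did not overlap (log2 fold change 0.65, SE 0.126, edgeR adjusted p = 0.0205), and Tfb1m lies on the opposite strand within it. The Tiam2 call was lost without WT replicate 3, WT replicate 4 or KO replicate 4.

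Kirrel, an immunoglobulin-type adhesion molecule of the kidney's slit diaphragm, measured 13.7, 13.7, 11.2, 9.70 and 9.43 CPM in WT and 15.2, 16.9, 17.6, 14.4 and 17.2 CPM in KO (log2 fold change 0.49, SE 0.103, edgeR adjusted p = 0.0318; 0.47 and 0.0566 without KO replicate 5). Fam126b, part of the complex that holds a phosphatidylinositol kinase at the plasma membrane, measured 8.35 to 11.7 CPM in WT and 13.0 to 16.8 CPM in KO (log2 fold change 0.50, SE 0.0958, edgeR adjusted p = 0.0192). Both were higher in all 5 KO libraries than in any WT library. Creb5, a leucine-zipper factor of the CREB and ATF family, measured 16.1, 16.9, 16.4, 19.1 and 18.0 CPM in WT and 18.9, 19.7, 23.4, 24.8 and 26.4 CPM in KO. KO replicate 1 lay within the WT range (log2 fold change 0.39, SE 0.0844, edgeR adjusted p = 0.0471), and the call was lost without KO replicate 5 (0.32, edgeR adjusted p = 0.105).

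The promoter of Creb5 is shown because it holds a full cyclic AMP response element (TGACGTCA, both strands searched), the DNA site that CREB-family factors bind. The element, in capitals, begins 45 bases before the RefSeq start.

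Creb5, chr6:53287053-53287302, plus strand: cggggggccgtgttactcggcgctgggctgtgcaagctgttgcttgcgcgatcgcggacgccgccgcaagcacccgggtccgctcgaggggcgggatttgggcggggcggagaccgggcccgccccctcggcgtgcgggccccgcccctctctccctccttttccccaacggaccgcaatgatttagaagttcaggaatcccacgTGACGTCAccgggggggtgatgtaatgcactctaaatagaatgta

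Creb5 was the 1 gene of 23 with this element, which occurred in 2.84% of all promoters and in 3.41% of tested genes with a promoter. Its first 5 letters alone, TGACG, occurred in 8 of the 23 genes and in 34.6% of tested genes with a promoter.

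Growth factor signalling gave 2 rises. Igf1r, the receptor tyrosine kinase for insulin-like growth factors, measured 47.6, 49.1, 42.8, 45.4 and 46.7 CPM in WT and 57.2, 60.5, 62.9, 61.0 and 53.2 CPM in KO. Igfbp6, a binding protein that prefers IGF2, measured 11.2, 11.3, 9.91, 10.4 and 10.7 CPM in WT and 14.0, 18.5, 12.2, 14.1 and 13.7 CPM in KO. Neither overlapped between genotypes, and both sat at the threshold (log2 fold changes 0.35 and 0.44, SE 0.0765 and 0.0958, edgeR adjusted p = 0.0494 for each). Igf1r passed in 11 and Igfbp6 in 10 of the 31 alternative analyses. Igfbp4, which sequesters insulin-like growth factors, was also apart, at 45.5, 44.5, 43.5, 37.3 and 45.5 CPM in WT and 67.9, 78.1, 53.9, 49.5 and 64.7 CPM in KO, and did not pass edgeR's test (log2 fold change 0.54, edgeR adjusted p = 0.0970, DESeq2 adjusted p = 0.00851). Deptor, an inhibitor of mTOR, had a log2 fold change of 0.28 (edgeR adjusted p = 0.191). Of the 29 tested genes of insulin-like growth factor and insulin signalling, 7 were higher and 2 lower at an unadjusted p under 0.05, and 7 and 1 without KO replicate 5. Over all tested genes 7.21% were higher and 5.79% lower, and 5.97% and 5.21% without that library. The median was 0.09.

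Rny3 had the largest rise among the genes that passed. It is a Y RNA, a small non-coding transcript bound by the Ro60 protein, which takes part in the quality control of RNA. The sequence of Rny3 is printed with that of its neighbour Rny1 for comparison. Both come from GENCODE vM21 on GRCm38, and capitals mark their longest shared run, 12 bases.

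Rny3, chr6:47781624-47781725, plus strand: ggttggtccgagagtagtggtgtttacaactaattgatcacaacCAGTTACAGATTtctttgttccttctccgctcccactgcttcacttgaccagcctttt
Rny1, chr6:47788069-47788180, minus strand: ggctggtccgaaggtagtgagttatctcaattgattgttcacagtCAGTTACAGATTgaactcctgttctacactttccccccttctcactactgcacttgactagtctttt

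Rny3 measured 0.751, 1.33, 0.500, 0.609 and 1.26 CPM in WT and 2.29, 1.78, 2.13, 2.56 and 5.89 CPM in KO, on 10 to 31 and 28 to 140 counts. The groups were apart, and KO replicate 5 was the highest. The log2 fold change was 1.79 (SE 0.336, edgeR adjusted p = 0.0228) with that library and 1.35 (edgeR adjusted p = 0.0241) without it. The call was lost without WT replicate 3, WT replicate 4 or KO replicate 4. Other small RNAs, whose types were chosen after the data were seen, did not pass. At an unadjusted p under 0.05, 5 of 18 small nuclear RNAs were higher and 1 lower. Of 23 small nucleolar RNAs 6 were higher and 0 lower, and of 16 miscellaneous RNAs 4 and 0. Of 8 scaRNAs 1 was higher and 0 lower, and of 14 microRNAs 0 were either. Over all tested genes 7.21% were higher and 5.79% lower. The medians of the 5 types were 0.45, 0.21, 0.31, 0.04 and −0.14. Under vehicle the medians of small nuclear and small nucleolar RNAs were 0.63 and 0.46, and 2 of each passed as higher. Libraries of this kind recover RNAs of this length poorly, so that Y RNA values are uncertain.

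The remaining genes that passed have roles outside these groups. Abca4, a lipid transporter known from photoreceptors, measured 3.52, 3.85, 4.00, 4.24 and 7.06 CPM in WT and 2.74, 2.54, 2.24, 2.84 and 2.15 CPM in KO (log2 fold change −0.84, SE 0.176, edgeR adjusted p = 0.0318). Grrp1 measured 3.12, 2.87, 5.90, 4.36 and 4.12 CPM in WT and 2.64, 2.92, 1.85, 1.99 and 1.77 CPM in KO, with KO replicate 2 inside the WT range (log2 fold change −0.88, SE 0.186, edgeR adjusted p = 0.0345). Both calls were lost without KO replicate 5 (edgeR adjusted p = 0.0607 for Abca4 and 0.0712 for Grrp1). Of the gene models without a functional name, Gm42517 rested on 4 to 7 counts per KO library (log2 fold change −1.52, SE 0.298, edgeR adjusted p = 0.0219) and overlaps Gm10419 on the opposite strand. The long intergenic RNA Gm36827 measured 24.4 to 32.3 CPM in WT and 21.2 to 23.8 CPM in KO (log2 fold change −0.35, SE 0.0758, edgeR adjusted p = 0.0471; 0.0807 without KO replicate 5). Both of these were named after their values were seen.

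The vehicle libraries show how much of this genotype difference was present without isoproterenol. Under vehicle 19 genes passed (0.128%), and 4 passed under both treatments, namely Ogfod1, Kcnj5, Cenpf and Gm36827. That is 14.8% of the isoproterenol calls and 21.1% of the vehicle calls. The sign was the same under vehicle for 26 of the 27 genes (96.3%, against 53.3% of all tested genes), the exception being Kirrel at −0.02. At an unadjusted p under 0.05, 14 of the 27 also differed under vehicle, where 8.31% of all genes did, and for 6 of them the vehicle groups did not overlap, as for 2.02% of all genes. The 2 comparisons share no library.

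The difference between the treatments, tested as an interaction in edgeR, passed for 0 of 14878 genes, with a smallest adjusted p of 0.231. DESeq2 and limma-voom also called 0, and 1142 genes had an unadjusted p under 0.05. So with all 20 libraries the test did not show for any gene that the genotype difference depended on isoproterenol. Without KO replicate 5 Aox1 passed (interaction 0.69, edgeR adjusted p = 0.0475). Without that library and WT vehicle replicate 2, Aox1 (0.61), Sik3 (0.51), Fam198b (−0.55) and Gimap4 (−0.81) passed (edgeR adjusted p 0.0420 to 0.0498). Without KO vehicle replicate 1 Rnu12 passed (−1.90, edgeR adjusted p = 0.00382). Genes such as Mtus2, Enah and Pirt were chosen by the isoproterenol side of this contrast, and their interaction values are given as a description. The genotype difference of Mtus2 was lower by 0.35 on the log2 scale under isoproterenol than under vehicle (interaction −0.35), that of Pirt by 0.57 (interaction −0.57) and that of Dbh by 0.64 (interaction −0.64). The interaction was 0.45 for Enah, 0.51 for Kirrel and 0.36 for Cenpf, whose fall was larger under vehicle. None of these 6 passed (edgeR adjusted p of the interaction at least 0.518).

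**Figure D3:**
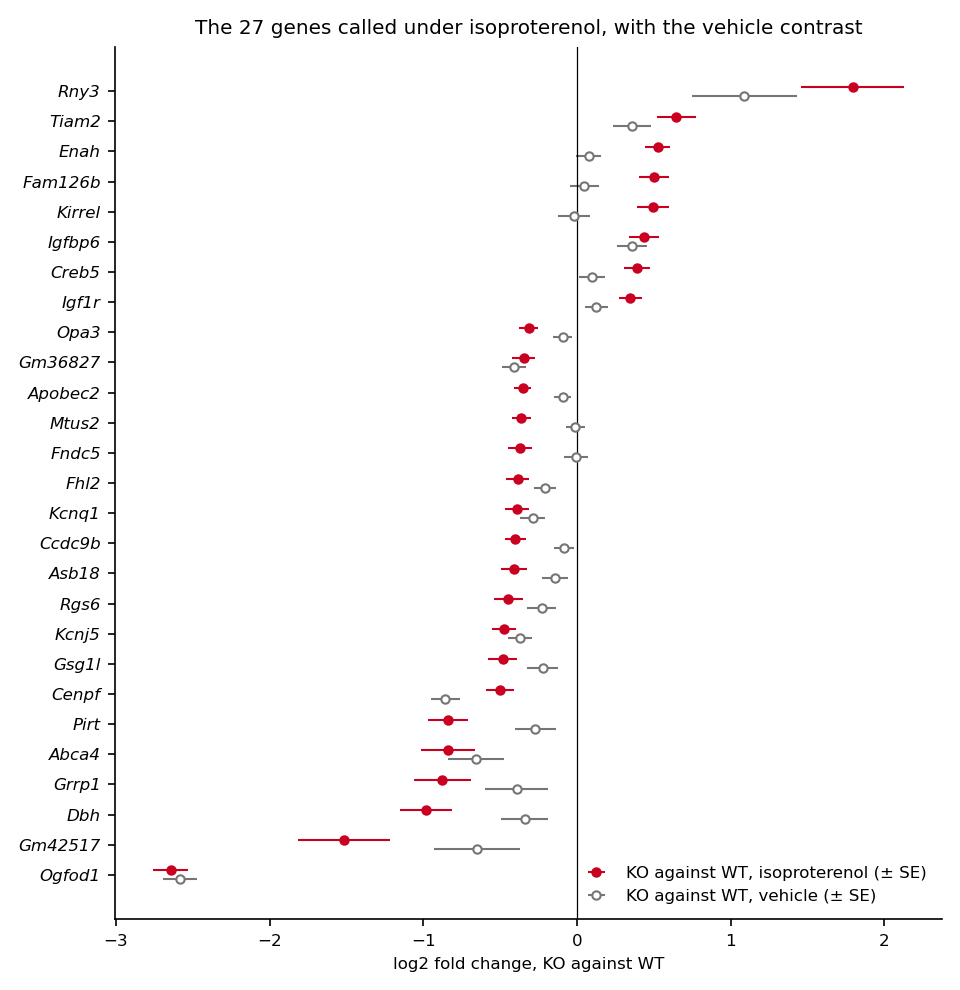
Log2 fold change of KO against WT with its SE for the 27 genes that passed under isoproterenol, shown for isoproterenol and for vehicle. Ogfod1 is at −2.64 and −2.58, Cenpf is farther from 0 under vehicle, and Mtus2, Enah and Fndc5 lie near 0 under vehicle.

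Just outside the threshold, 7 genes had groups that did not overlap and fill the places left by the naming rule. Bnc2, a zinc-finger protein of fibroblast-like cells, measured 3.12, 2.78, 2.15, 2.67 and 2.65 CPM in WT and 4.54, 4.70, 3.76, 4.71 and 3.79 CPM in KO (log2 fold change 0.68, SE 0.155, edgeR adjusted p = 0.0605, and 0.0430 without KO replicate 5). The Wnt receptor Fzd7 (log2 fold change 0.61, edgeR adjusted p = 0.0605) and Plekhh2 (0.49, 0.0543) lay higher. Cdh13, a cadherin that binds adiponectin, measured 144 to 174 CPM in WT and 119 to 131 CPM in KO (−0.30, 0.0605). Mlf1 (−0.34, 0.0603), the plasmalogen-synthesizing Gnpat (−0.26, 0.0625) and the Rap1 regulator Rap1gap2 (−0.27, 0.0625) lay lower. DESeq2, which called more genes than edgeR from the same counts, called all 7.

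Nppa, Nppb, Myh6, Myh7 and Acta1, by which isoproterenol-induced hypertrophy is usually read, did not separate the genotypes. The natriuretic peptide genes Nppa (log2 fold change −0.02, SE 0.0881, edgeR adjusted p = 0.942) and Nppb (0.12, edgeR adjusted p = 0.869) did not pass. Nppb measured 20.3, 23.9, 37.1, 39.1 and 39.7 CPM in WT and 39.6, 38.2, 43.3, 30.2 and 23.5 CPM in KO, so that the groups overlapped widely. Myh6, the adult myosin heavy chain, measured 9662 to 11430 CPM in WT and 8466 to 11659 CPM in KO (0.00, edgeR adjusted p = 0.995), and this value changes sign with the setting. Myh7, the fetal myosin heavy chain, measured 60.7, 41.1, 45.9, 47.9 and 43.5 CPM in WT and 62.9, 58.0, 49.7, 38.5 and 49.4 CPM in KO (0.11, edgeR adjusted p = 0.899), and it shares its locus with the antisense RNA Mhrt. Skeletal alpha-actin, Acta1, measured 28.8, 13.5, 21.8, 19.5 and 12.4 CPM in WT and 34.2, 31.7, 27.7, 29.2 and 25.5 CPM in KO. WT replicate 1 alone reached the KO range (log2 fold change 0.63, edgeR adjusted p = 0.259).

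Matrix genes lay higher in the KO, and much of this rested on KO replicate 5. Col1a1, the main fibrillar collagen chain, measured 28.1, 40.2, 49.2, 21.0 and 21.7 CPM in WT and 37.1, 56.4, 26.0, 48.0 and 379 CPM in KO. The last library was far above the rest, and the log2 fold change was 1.78 with it (edgeR adjusted p = 0.268) and 0.38 without it (0.755). Col3a1 went from 0.73 (edgeR adjusted p = 0.396) to 0.07 (0.920) in the same way. Postn, a matricellular protein of activated fibroblasts, measured 127, 84.8, 119.8, 92.0 and 90.4 CPM in WT and 109, 116, 84.8, 127 and 386 CPM in KO, and went from 0.68 (edgeR adjusted p = 0.393) to 0.09 (0.882). The 22 tested collagen genes had a median of 0.33 with 6 higher and 0 lower at an unadjusted p under 0.05, and of 0.02 with 2 and 0 without KO replicate 5. The 16 elastic fibre genes went from 0.47 (9 higher, 0 lower) to 0.10 (3 higher, 1 lower). At the same unadjusted p 7.21% of all genes were higher and 5.79% lower, and 5.97% and 5.21% without that library.

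The non-collagen matrix genes kept a positive median without it. Of 42 tested, 0 passed, 24 were higher and 0 lower at an unadjusted p under 0.05, and 40 lay above 0, with a median of 0.37. Without KO replicate 5 the median was 0.18, 12 were higher and 0 lower, and 34 lay above 0. Col12a1, a collagen that links fibrils, measured 6.58, 5.52, 6.35, 5.18 and 6.36 CPM in WT and 7.73, 10.2, 6.27, 9.66 and 13.4 CPM in KO (log2 fold change 0.67, edgeR adjusted p = 0.0605; 0.51 and 0.113 without KO replicate 5). Timp2, an inhibitor of matrix metalloproteinases, measured 61.8, 68.9, 60.2, 57.5 and 57.9 CPM in WT and 70.0, 74.7, 64.7, 82.1 and 105 CPM in KO (0.38, edgeR adjusted p = 0.0725; 0.25 and 0.113). In both genes KO replicate 3 alone fell back into the WT range. Spp1 (osteopontin, a cytokine-like matrix protein) measured 0.635, 1.11, 1.35, 0.562 and 0.629 CPM in WT and 1.6, 2.03, 1.58, 2.84 and 1.05 CPM in KO. Unlike these, it was larger without KO replicate 5 (log2 fold change 1.24, edgeR adjusted p = 0.0423) than with it (1.08, 0.0970). Comp, a cartilage matrix protein (0.69, 0.133), and the proteoglycan Prelp (0.43, 0.120) did not pass. Among 20 Wnt modulators and ligands, 8 were higher and 0 lower at an unadjusted p under 0.05 with a median of 0.27, and 5 and 1 with 0.19 without KO replicate 5. Sfrp4, a secreted Wnt antagonist, led them at 2.17 (edgeR adjusted p = 0.0970), on means of 0.254 and 1.14 CPM, and was at 1.56 (0.194) without KO replicate 5.

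Markers of some other cell types lay higher along with these matrix genes, and their part in the result was not tested. The lists are not separate. Comp and Fmod belong to both the valve and the non-collagen matrix lists, and Lum and Ogn to both the fibroblast and the non-collagen matrix lists. Valve and cartilage-like markers summed to 26.8 to 46.3 CPM in WT and 50.9 to 57.5 CPM in KO, without overlap. Of 8 tested, 5 were higher and 0 lower at an unadjusted p under 0.05, against 7.21% and 5.79% of all genes. The median was 0.55 (4 higher and 0.53 without KO replicate 5). Prg4 of this list passed without that library (log2 fold change 0.71, edgeR adjusted p = 0.0423). The cartilage genes Matn3, Matn4 and Tnmd, with at most 7 counts in a library, were not tested. Mesothelial and epicardial markers summed to 17.4 to 19.5 CPM in WT and 19.9 to 29.2 CPM in KO. All 9 lay above 0, 5 were higher at an unadjusted p under 0.05, and the median was 0.57. The count was 3 and the median 0.50 without KO replicate 5. Msln, the mesothelial surface protein mesothelin, measured 3.12, 2.57, 3.80, 2.48 and 2.51 CPM in WT and 5.49, 6.79, 4.31, 3.63 and 4.29 CPM in KO (log2 fold change 0.76, edgeR adjusted p = 0.0836, DESeq2 adjusted p = 0.0260).

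Fibroblast markers summed to 886 to 989 CPM in WT and 983 to 1071 CPM in KO, with 4 of 9 higher and 0 lower at an unadjusted p under 0.05 (median 0.15), and 2 and 0 (0.09) without KO replicate 5. Between the vehicle groups their median was 0.14. Smooth muscle and pericyte markers summed to 1934 to 2121 CPM in WT, 2019 to 2061 CPM in KO replicates 1 to 4 and 2840 CPM in KO replicate 5. Their median went from 0.30 to 0.04 without that library. Erythroid and platelet markers summed to 229 to 351 CPM in WT and 314 to 414 CPM in KO, with 651 CPM in KO replicate 5, and 6 of 9 were higher (3 without it). Macrophage markers (246 to 375 CPM in WT and 292 to 328 CPM in KO) and endothelial markers (877 to 970 and 855 to 957 CPM) overlapped, with 0 of 17 and 5 of 13 at an unadjusted p under 0.05, the latter 2 higher and 3 lower (3 and 2 without KO replicate 5). The immunoglobulin light chain Igkc, a plasma cell transcript, reached 33.1 CPM in WT replicate 1 and 0.109 to 6.64 CPM in the other 9 libraries. Cardiomyocyte markers had 4 of 10 lower and 0 higher, with a median of −0.15, and 1 lower with a median of −0.10 without KO replicate 5.

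**Figure D4:**
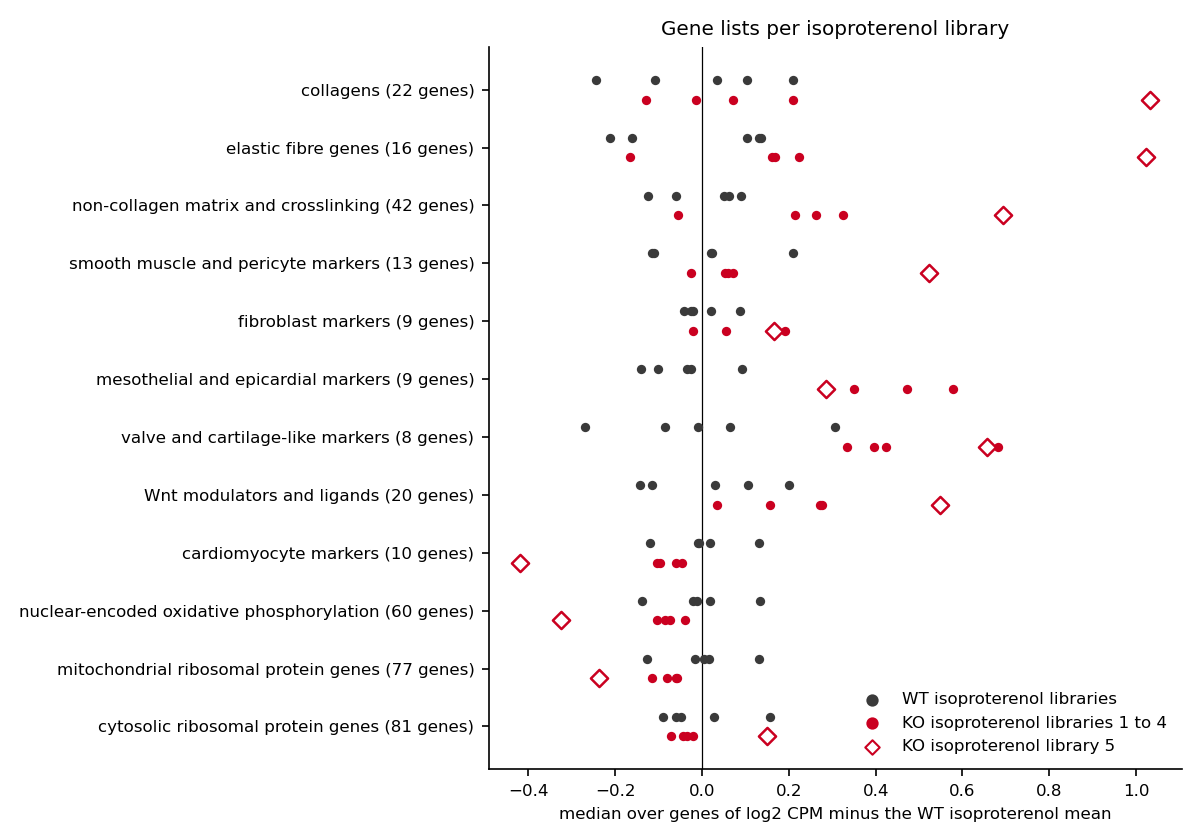
Median over the tested genes of 12 lists of log2 CPM minus the WT isoproterenol mean (horizontal axis, log2 units) for each of the 10 isoproterenol libraries; the diamond is KO replicate 5. For collagens the diamond is at 1.03 with the other KO libraries within the WT range, and for elastic fibre genes it is at 1.02 with the others between −0.16 and 0.22 against −0.21 to 0.13 in WT, while for valve and mesothelial markers the KO libraries lie from 0.33 to 0.68 and from 0.29 to 0.58.

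Nuclear genes for mitochondrial energy production lay slightly lower in the KO. All 60 tested genes of oxidative phosphorylation had a log2 fold change below 0, with a median of −0.13 against 0.004 for all genes. None passed, and 15 were lower and 0 higher at an unadjusted p under 0.05, against 5.79% and 7.21% of all genes. Without KO replicate 5 the median was −0.08, with 55 below 0 and 4 lower at that p. In the library medians KO replicate 5 was at −0.33, the other 4 KO libraries between −0.10 and −0.04, and WT libraries between −0.14 and 0.13, so that the genotypes overlapped. Ndufa9, a subunit of complex I, came nearest (log2 fold change −0.23, SE 0.0652, edgeR adjusted p = 0.131). The median of the same genes under vehicle was 0.01. The 13 mitochondrially encoded genes had a median of 0.05, with 0 at an unadjusted p under 0.05 in either direction. Without KO replicate 5 the median was 0.13, with 2 higher and 0 lower, and on leaving out each library in turn it ranged from −0.04 to 0.13.

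Of 77 mitochondrial ribosomal proteins, 69 lay below 0, 17 were lower and 0 higher at an unadjusted p under 0.05, and the median was −0.11 (8 lower and −0.09 without KO replicate 5). Fatty acid oxidation genes had 34 of 36 below 0, 5 lower and 0 higher, and a median of −0.10. Without that library the median was −0.04, with 27 below 0, 1 lower and 1 higher. Its thiolase Acaa2 had a log2 fold change of −0.23 (edgeR adjusted p = 0.167). The 33 genes of the TCA cycle and related pathways had 30 below 0, 7 lower and 0 higher and a median of −0.10, and 22 below 0, 2 lower, 0 higher and −0.04 without KO replicate 5. Between the vehicle groups the medians were 0.03 for mitochondrial ribosomal proteins, −0.09 for fatty acid oxidation and −0.05 for the TCA list. The cardiomyocyte markers, with their median of −0.15 under isoproterenol, lay lower beside these lists, and their part in the difference was not tested.

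Genes of translation, in which OGFOD1 acts through Rps23, did not pass. The 81 tested cytosolic ribosomal proteins had 43 above and 38 below 0, with a median of 0.00 whose sign flips between settings (−0.05 to 0.04), and 0 were higher and 1 lower at an unadjusted p under 0.05. Without KO replicate 5, 5 were lower and 0 higher, and 60 lay below 0. The 1 that was lower with all libraries was Rpl29 (log2 fold change −0.16, edgeR adjusted p = 0.340). Translation initiation and elongation factors (51 genes, 2 higher and 2 lower, median −0.03), aminoacyl-tRNA synthetases (37 genes, 1 and 3, −0.08) and ribosome biogenesis genes (38 genes, 0 and 2, −0.04) lay near 0. These counts were 1 and 3, 1 and 1, and 0 and 2 without KO replicate 5. Polr1a, the catalytic subunit of RNA polymerase I, had −0.23 (edgeR adjusted p = 0.142) and the pseudouridine synthase gene Dkc1 −0.27 (edgeR adjusted p = 0.181).

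Stress pathways held no gene that passed. The integrated stress response (22 genes, 2 higher and 1 lower at an unadjusted p under 0.05, median 0.04), the unfolded protein response (22 genes, 1 and 4, −0.03), heat shock proteins (23 genes, 4 and 3, 0.00), hypoxia targets (18 genes, 2 and 2, −0.02) and antioxidant genes (32 genes, 2 and 0, 0.03) had medians near 0. The higher and lower counts of these 5 lists were 1 and 1, 0 and 3, 3 and 1, 2 and 1, and 4 and 0 without KO replicate 5. In the pathway that isoproterenol drives, 36 tested beta-adrenergic and cyclic AMP genes had 3 higher and 5 lower, with a median of −0.03, and 2 and 3 with −0.08 without KO replicate 5. Adra1b, an alpha-adrenergic receptor (log2 fold change −0.30, edgeR adjusted p = 0.223), and Gnas, which encodes the alpha subunit of Gs (0.22, edgeR adjusted p = 0.226), did not pass. Calcium handling genes (28 genes, 2 higher and 3 lower, median −0.06, and 2 and 5 without KO replicate 5) held none that passed with all libraries. Cacnb2, a subunit of the L-type calcium channel, had −0.22 (edgeR adjusted p = 0.230). Casq1 of this list passed, as lower, without KO replicate 5 (log2 fold change −0.92, edgeR adjusted p = 0.0442). Sarcomere genes had 6 of 25 lower and 2 higher with a median of −0.09, and 1 lower and 4 higher with −0.04 without KO replicate 5. Unc45b, the chaperone that folds myosin, had −0.29 (edgeR adjusted p = 0.114), and Nrap, which anchors actin at the intercalated disc, 0.24 (edgeR adjusted p = 0.258), and 0.35 (edgeR adjusted p = 0.00228) without KO replicate 5.

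The other lists likewise held no gene that passed. Collagen prolyl and lysyl hydroxylases, which like OGFOD1 use 2-oxoglutarate, had 3 of 15 higher and 0 lower at an unadjusted p under 0.05, and 1 higher and 2 lower without KO replicate 5. Circadian clock genes had 5 of 20 higher and 1 lower (median 0.04), and 8 and 5 (0.16) without that library. Immediate early genes had 2 of 22 higher and 0 lower, with a median of 0.10 that ranged from −0.07 to 0.21 over the alternatives, and 1 and 2 without KO replicate 5. Interferon-stimulated genes had 0 of 35 higher and 2 lower (median −0.06, from −0.16 to 0.03), and 0 and 1 without that library. NAD synthesis genes (17 genes, 0 higher and 2 lower), glycolysis and glycogen genes (32 genes, 1 and 5) and metabolic regulators of the PPAR group (21 genes, 1 and 4) had medians of 0.07, −0.08 and 0.00. The counts were 1 and 0, 1 and 2, and 2 and 0 without KO replicate 5, with medians of 0.05, −0.04 and 0.00. Adipocyte markers had 0 of 8 at an unadjusted p under 0.05, and neutrophil and mast cell markers 1 of 7, which was lower. Of 13 lymphocyte markers 3 were tested, and the list summed to 2.58 to 104 CPM in WT and 2.40 to 13.7 CPM in KO. Of the 35 pathway lists examined, 6 held a gene that passed, as did 1 of the 15 cell type lists.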

How the data were processed

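The authors deposited raw counts per gene, 55335 versioned Ensembl IDs in 20 libraries, and per the submitters' processing notes used HISAT2 2.1.0, featureCounts 1.6.3 and GRCm38. R 3.6.0 and limma 3.40.6 are also named there. Which annotation release was used, whether counting used strand, and how reads shared by several genes were treated are not given in the sources used here. Groups came from the labels. Libraries were numbered in record order, and no date or batch is labelled. Replicates of a group differed by 4.05 to 36.6 times the sampling noise (chi-square per degree of freedom), so each counted as 1 sample.

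The counts were modelled with edgeR 4.0.16 under R 4.3.3: filterByExpr, TMM scaling, 1 robust quasi-likelihood fit of 4 group means to all 20 libraries (16 residual degrees of freedom, common biological coefficient of variation 0.119). Log2 CPM used a prior count of 2. Alternatives were DESeq2 1.42.0, limma-voom (limma 3.58.1) without and with quality weights, 2 surrogate variables (sva 3.50.0), other scalings and filters, the compared groups alone, and leaving out libraries. The edgeR test was tested on simulated data. Symbols and coordinates came from GENCODE vM21, which held 55154 of the IDs, 54587 in the same version.

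Named genes were those that passed with a named symbol and an average log2 CPM not below 0, up to 15 in each direction. Places up to 30 went to genes with the smallest p whose groups did not overlap. Ogfod1, Rps23 and 8 hypertrophy and fibrosis markers were added, with up to 4 members per list, not all of which are printed. The libraries, the 50 gene lists and the tests were chosen with earlier results of these data known, and unadjusted counts over lists are descriptions. Figures used Python 3.11.15 and matplotlib 3.10.9.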

Additional observations from a re-analysis of the deposited data

Results flagged for a closer look

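Of 160 groups of 5 libraries examined (80 genes in KO and in WT under isoproterenol), 14 held a library whose gap to the next exceeded Dixon's 95% limit of 0.71 of the group's range. Chance gives about 1 in 20 such groups. KO replicate 5 accounted for 6. In that library Col1a1 was at 8.57 log2 CPM against 4.70 to 5.82 in the other KO libraries, and Postn at 8.59 against 6.41 to 6.99. Rps23 was higher, at 5.21 against 4.82 to 4.87. Fhl2 (8.57 against 8.76 to 8.83), Acaa2 (7.09 against 7.30 to 7.37) and Gnpat (5.79 against 5.95 to 5.98) were lower there. Of the other KO libraries, replicate 1 had Tiam2 at 2.80 against 3.18 to 3.27, and replicate 3 had Fam126b at 4.08 against 3.72 to 3.77.

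Among WT libraries, replicate 5 stood apart for Abca4 (2.84 against 1.85 to 2.11 log2 CPM), Acaa2 (7.74 against 7.41 to 7.48) and Nppa (8.61 against 8.41 to 8.45). WT replicate 2 stood apart for Fbln1 (5.74 against 5.42 to 5.51) and Gnas (7.56 against 7.35 to 7.38), and WT replicate 4 for Igfbp4 (5.23 against 5.45 to 5.51).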

How the results depend on the processing

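No paired analysis was possible because replicates were numbered in record order and the numbers mark no shared animal, litter or day. With 27 genes passing at 5 libraries a group, counts near the threshold moved easily. Under isoproterenol the 8 higher genes became 5 with upper-quartile scaling or a stricter filter, 19 with 2 surrogate variables, 26 without both libraries that stood apart (KO isoproterenol replicate 5 and WT vehicle replicate 2), 48 with voom and quality weights, 71 with DESeq2 and 151 without a filter. Leaving out 1 library gave 1 (WT isoproterenol replicate 3) to 25 (KO isoproterenol replicate 3). The 19 lower became 9 with the compared groups fitted alone, 33 with quality weights, 62 with DESeq2 and 99 without a filter, and 7 (without KO isoproterenol replicate 4) to 40 (without WT isoproterenol replicate 1) on leaving out 1 library.

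Under vehicle the 9 higher became 18 without both libraries that stood apart, 19 with quality weights, 23 with surrogate variables, 29 with DESeq2 and 38 without a filter (7 to 12 on leaving out 1 library). The 10 lower became 6 with upper-quartile scaling, 18 with the compared groups alone, 20 without both libraries, 24 with quality weights, 27 with surrogate variables, 43 with DESeq2 and 79 without a filter (3 to 23). The interaction count of 0 became 4 without both libraries and 34 without a filter (0 to 1). The genes whose groups do not overlap, 318 in all, numbered 434 to 642 with 1 library fewer, where fewer values must be apart. The cause of the other shifts was not tested. Ogfod1 stayed between −2.76 and −2.56 on leaving out 1 library.

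Values near 0 changed sign without passing. The Rps23 log2 fold change was −0.032 with quality weights and −0.066 without both libraries (−0.067 to 0.080 on leaving out 1). The Nppa log2 fold change was 0.015 with surrogate variables, 0.0066 with quality weights and 0.031 without both libraries (−0.12 to 0.031). On leaving out 1 library Nppb ranged from −0.0017 to 0.24. The Myh6 log2 fold change was −0.00662 with upper-quartile scaling, −0.0074 without a filter, −0.044 with surrogate variables, −0.0044 with voom and −0.00084 with DESeq2 (−0.038 to 0.073). The Myh7 log2 fold change was −0.043 with surrogate variables. Genes under about 10 counts a library, such as Gm42517 in the KO, are limited by depth.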
